A study of Mus musculus with 30 samples.

Results

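Interferon-stimulated genes are genes whose transcripts increase when a cell senses interferon or viral nucleic acid. The set described here was taken from the deposited count table of 30 mouse heart libraries. It holds the gene rows whose GENCODE symbol is one of 39 names given for the module, out of 55487 gene rows in all. Every name matched a row. The study asked what Cpt1a, the mitochondrial carnitine palmitoyltransferase that admits long-chain fatty acids for oxidation, does in hearts under pressure overload. Hearts were frozen 8 weeks after surgery, which was either sham or transverse aortic constriction (TAC, in which a clip across the aortic arch raises the load on the left ventricle), and their poly(A) RNA was sequenced.

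The first cohort held C57Bl/6 mice. They received saline (PBS) or an adeno-associated virus of serotype 9 carrying Cpt1a (AAV9.Cpt1a), behind a cardiac troponin T promoter according to the design text, which is active in cardiomyocytes. Its groups were saline with sham surgery (PBS_sham, 3 libraries), vector with sham surgery (AAV_sham, 4), saline with TAC (PBS_TAC, 3) and vector with TAC (AAV_TAC, 4). The comparator of the vector was saline and not an empty vector, so the capsid, the vector genome and the Cpt1a product cannot be told apart. The second cohort held mice with floxed Cpt1a alleles and intact expression (FF_sham and FF_TAC, 4 libraries each) and mice with a cardiac-specific Cpt1a knockout (KO_sham and KO_TAC, 4 each). The design text calls the loss of Cpt1a a knockdown. The Cre driver and the age of the mice are not given in the sources used here, and the labels do not say whether every library came from its own animal, so p-values measure the spread between these libraries. The sample titles of KO_TAC name both surgeries, and their genotype and treatment labels, which give knockout and TAC, were followed.

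Type I interferons such as interferon beta bind the receptor pair IFNAR1 and IFNAR2, and the kinases JAK1 and TYK2 then activate transcription factors, STAT2 and IRF9 among them, that bind interferon-stimulated response elements in promoters. The products restrict viruses in several ways: IFIT proteins bind foreign RNA, the OAS enzymes make the activator of RNase L, MX proteins trap viral nucleocapsids, and ISG15 is a ubiquitin-like modifier of other proteins. In the heart such genes are known to respond to viral myocarditis and to nucleic acid released from injured cells.

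The promoter sequences below are shown because the members were grouped by their response to interferon and most were high in the same few libraries, described later. Promoters from 250 bases before to 50 bases after a RefSeq start site (GRCm38.p6, 300 bases) were held for 30 of the 39 members, in 35 windows. The response element was searched as GAAA and GAAA with any 2 bases between them, and the gamma-activated site as TTCNNNGAA, each on both strands. The response element letters were found in 19 of the 35 windows (54.3%, belonging to 18 of the 30 genes), against 3.44% of all 32851 windows of that length. The gamma-activated site letters were found in 8 windows (22.9%), against 8.3% of all windows, and both motifs in 5 (14.3%), against 0.454%; matches of the motifs can overlap each other. A match is a description of letters and does not show that a factor binds. Capitals mark the bases of the matches, which are response elements in Isg15, Ifit1, Stat2 and Gbp3 and a gamma-activated site in Irf1. Each sequence runs 5′ to 3′ on the strand of its gene.
Isg15, chr4:156200769-156201068, minus strand: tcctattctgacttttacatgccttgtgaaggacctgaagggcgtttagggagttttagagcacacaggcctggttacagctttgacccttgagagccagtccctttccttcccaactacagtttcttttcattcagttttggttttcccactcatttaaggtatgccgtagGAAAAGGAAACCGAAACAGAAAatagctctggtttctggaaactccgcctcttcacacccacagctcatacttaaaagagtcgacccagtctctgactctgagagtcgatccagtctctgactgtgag
Ifit1, chr19:34640639-34640938, plus strand: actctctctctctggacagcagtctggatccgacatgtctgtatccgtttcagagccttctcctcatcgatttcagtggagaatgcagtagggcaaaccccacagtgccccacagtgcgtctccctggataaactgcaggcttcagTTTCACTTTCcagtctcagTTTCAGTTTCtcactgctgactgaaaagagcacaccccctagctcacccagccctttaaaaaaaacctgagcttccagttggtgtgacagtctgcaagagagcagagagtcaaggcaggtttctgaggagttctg
Stat2, chr10:128270248-128270547, plus strand: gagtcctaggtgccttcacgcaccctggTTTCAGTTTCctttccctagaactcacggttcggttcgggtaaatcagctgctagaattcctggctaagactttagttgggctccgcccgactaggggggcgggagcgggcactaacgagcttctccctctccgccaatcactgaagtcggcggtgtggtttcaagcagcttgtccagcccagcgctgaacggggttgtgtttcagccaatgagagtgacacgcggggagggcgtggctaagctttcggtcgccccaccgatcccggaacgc
Gbp3, chr3:142559794-142560093, plus strand: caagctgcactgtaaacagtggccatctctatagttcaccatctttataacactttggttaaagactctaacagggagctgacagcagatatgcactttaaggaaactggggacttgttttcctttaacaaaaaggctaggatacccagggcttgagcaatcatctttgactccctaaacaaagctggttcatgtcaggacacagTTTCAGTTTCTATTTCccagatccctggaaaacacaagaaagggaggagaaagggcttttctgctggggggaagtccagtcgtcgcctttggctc
Irf1, chr11:53769764-53770063, plus strand: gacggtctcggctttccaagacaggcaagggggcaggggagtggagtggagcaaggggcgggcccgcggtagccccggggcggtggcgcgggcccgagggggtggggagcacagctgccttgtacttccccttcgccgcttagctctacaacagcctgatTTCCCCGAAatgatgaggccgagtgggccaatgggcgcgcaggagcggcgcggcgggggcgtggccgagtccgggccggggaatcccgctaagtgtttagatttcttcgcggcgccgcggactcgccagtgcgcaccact
Isg15 held 3 overlapping response elements, the first at position -78 from the start site. Ifit1 held 2, the first at -104, Gbp3 held 2 that overlap, the first at -45, and Stat2 held 1 at -222. Irf1 held its gamma-activated site at -90 and no response element letters in this window. In all, 12 of the 30 genes held no response element letters in their windows: Irf1, Irf7, Irf9, Oasl1, Oasl2, Ifit2, Ifi35, Ifi44, Ifi47, Cmpk2, Lgals3bp and Xaf1.

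Both genes that mark the module were detected in all 30 libraries. Isg15 (ENSMUSG00000035692, GRCm38 chr4:156199424-156200818, minus strand) is the modifier itself, and Irf7 (ENSMUSG00000025498, chr7:141262706-141266481, minus strand) is the transcription factor that amplifies interferon production. Levels are given as CPM, which are counts scaled to the library total and by TMM, from libraries of 14839758 to 22070373 counts. Levels per kilobase of exon used all annotated exons of a gene, merged. The merged length can exceed the longest transcript (3976 against 2137 bases for Irf1, 756 against 756 for Isg15). The order of different genes on this scale is therefore approximate. The most abundant members in saline hearts with TAC were Bst2 at 24.2 ± 1.75 CPM per kb (SD, n = 3), Ifi27 at 18.9 ± 1.80 and Lgals3bp at 15.4 ± 0.65. Bst2 is tetherin, which holds budding virions at the cell surface. The least abundant were Mx1 at 0.231 ± 0.104 and Oas3 at 0.0376 ± 0.0183 CPM per kb. In KO_TAC the order differed in description: Irf1 lay highest at 76.7 ± 23.6 CPM per kb (SD, n = 4), followed by Isg15 at 63.3 ± 44.5, Bst2 at 38.02 ± 9.21 and Ifit1 at 37.1 ± 31.9, and these 4 overlap within their spread. The saline hearts belong to the other cohort and are not the control of KO_TAC. In the control group FF_TAC, Irf1 was also high in some libraries, as given below.

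**Figure D1:**
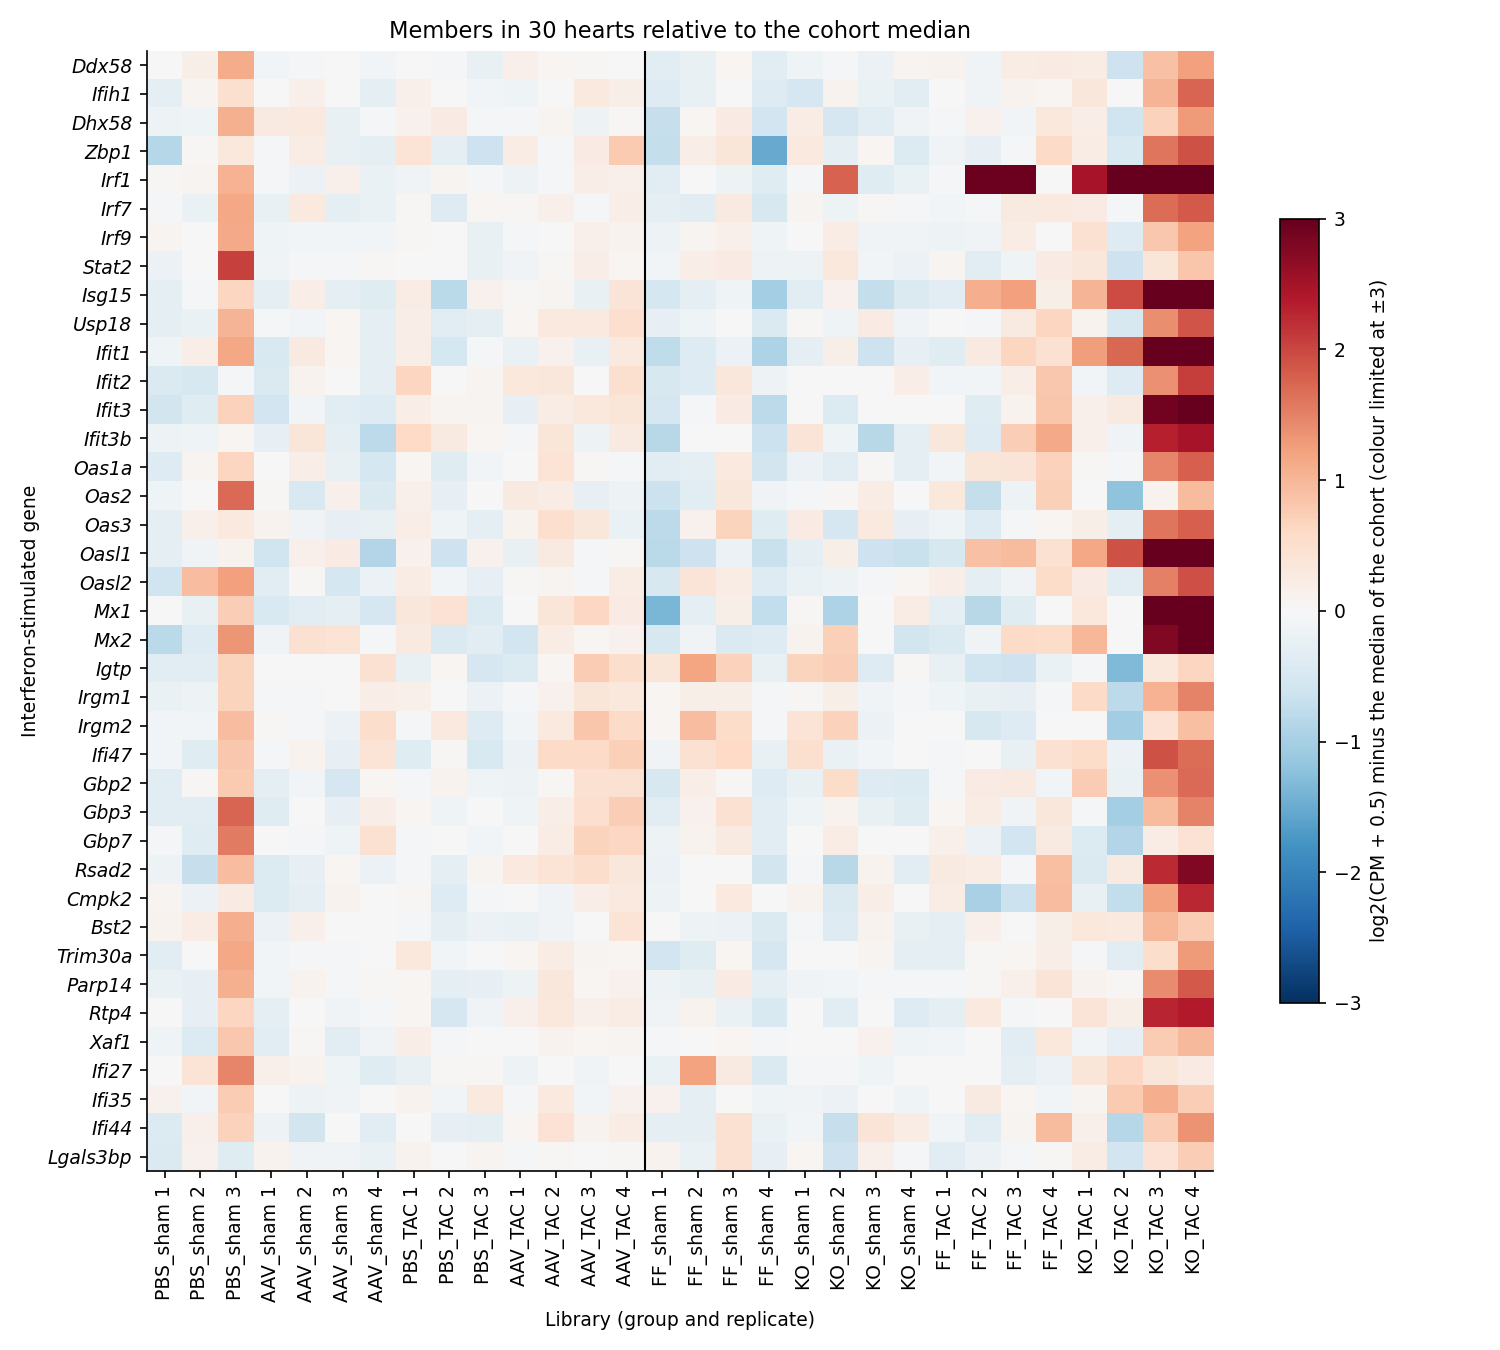
Level of each of the 39 members (vertical axis, grouped by role) in each of the 30 libraries (horizontal axis), as log2(CPM + 0.5) minus the median of the same cohort, with the colour limited at 3 on either side and a line between the cohorts. PBS_sham 3 in the vector cohort and KO_TAC 3 and KO_TAC 4 in the floxed cohort stand out as columns that are high for most members.

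Libraries that stand apart bear on every comparison that follows. PBS_sham 3 was the highest of the 14 libraries of its cohort for 31 of 38 members, against 33% of all genes tested, and its median ratio to the median of the other 13 was 1.97 over members and 1.02 over all genes. Its summed cardiomyocyte markers (5 genes) were 21096 CPM against 46374 to 58900 in the other 13, its mural markers (4 genes) 2264 against 725 to 1007, and its endothelial markers (5 genes) 1497 against 755 to 989. Summed macrophage markers were 99.9 CPM in it against 99.8 to 172, and summed neutrophil markers (4 genes) were 0.757 CPM against 0.0999 to 1.86. The part of these differences in the member levels was not tested, and in bulk tissue fewer cells of a type and less RNA per cell cannot be told apart. In the floxed cohort, summed haemoglobin transcripts were 1.40 to 51.1 CPM (without TMM scaling) in 7 libraries and 384 to 678 in the other 9. The 7 are all 4 KO_TAC libraries and those labelled FF_TAC 2, FF_TAC 3 and KO_sham 2. Early-response genes such as Fos and Egr1 averaged 7.09 to 8.87 on the log2 CPM scale in the 7 and 3.63 to 4.19 in the 9. Cpt1a itself was 11.1 to 19.6 CPM in KO_TAC and 20.3 to 23.6 in the libraries KO_sham 1, 3 and 4, but 46.2 in the library labelled KO_sham 2, inside the FF_sham range of 37.8 to 52.6. Cpt1a lay at 20.3 CPM in the library labelled FF_TAC 2 and at 16.2 in that labelled FF_TAC 3, against 48.8 and 33.9 in FF_TAC 1 and 4. Across the saline and vector hearts Cpt1a ran from 37.4 to 88.3 CPM, and the groups overlapped (AAV_sham 56.3 to 88.3, PBS_sham 37.4 to 68.0). Under TAC the overlap was nearly complete (AAV_TAC 44.8 to 62.6, PBS_TAC 40.2 to 61.5).

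Whether the vector alone changed interferon-stimulated genes was asked first, in sham hearts. Isg15 was 4.27, 5.15 and 8.57 CPM in the 3 PBS_sham libraries and 4.28, 6.19, 4.26 and 3.99 in the 4 AAV_sham libraries. Irf7 was 13.9, 12.6 and 33.4 CPM in PBS_sham and 12.4, 18.1, 11.7 and 12.6 in AAV_sham. For both genes the highest value belonged to PBS_sham 3 and the groups overlapped. The log2 fold change of AAV_sham over PBS_sham was -0.36 (SE 0.29) for Isg15 and -0.55 (SE 0.28) for Irf7, with adjusted p of 0.439 and 0.269 (quasi-likelihood test of edgeR, Benjamini-Hochberg). No member of the 38 tested was called at an adjusted p under 0.05 (the lowest was 0.158), against 0.0127% of all 15745 genes tested. DESeq2 also called 0 members, with 0.266% of all genes called higher and 1.49% lower. Oas3, the remaining member, was at 0.159 to 0.633 CPM in this cohort and was too low to be tested.

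Most members lay lower in AAV_sham than in PBS_sham, 34 of 38, with a median log2 fold change of -0.39 against -0.03 over all genes. At an unadjusted p under 0.05, 10 members were lower and 0 higher, against 14.8% and 5.93% of all genes. The 10 were Mx1, Stat2, Oasl2, Oas2, Ifi27, Irf9, Ddx58 (the RNA sensor RIG-I), Bst2, Irf1 and Ifi35. Stat2, a transcription factor of the type I interferon response, was 24.1, 27.6 and 114 CPM in PBS_sham and 25.3 to 27.9 in AAV_sham. PBS_sham 3 stood alone above the other 6 libraries. The libraries of the 2 groups did not overlap for 2 members, Mx1 and Irf9, both lower with the vector, against 5.32% of all genes. By role, the medians were -0.58 for the 4 transcription factors, -0.66 for the tested OAS genes, -0.57 for the 3 guanylate-binding proteins and -0.15 for the 4 immunity-related GTPases.

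The direction rested on PBS_sham 3. Without PBS_sham 3 the median log2 fold change over the members was 0.04, Irf7 was at 0.045, and 0 members were called. Without PBS_sham 1 instead, 10 members were called, all lower, against 17.4% of all genes called in either direction and 12.3% called lower. The 10 were Oasl2, Stat2, Oas2, Ifi27, Ddx58, Irf9, Ifi44, Trim30a, Bst2 and Irf1. Gbp3, one of the guanylate-binding GTPases, shows the pattern at the level of libraries: 14.8, 14.7 and 63.7 CPM in PBS_sham and 14.3 to 21.5 in AAV_sham.

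Under TAC the same question was put to AAV_TAC and PBS_TAC, which do not contain PBS_sham 3. Isg15 was 6.26, 2.82 and 5.87 CPM in PBS_TAC and 5.49, 5.70, 4.48 and 7.10 in AAV_TAC. Irf7 was 15.0, 11.1 and 15.3 CPM in PBS_TAC and 14.9, 16.2, 14.2 and 16.8 in AAV_TAC. Both genes overlapped between the groups. The log2 fold changes were 0.19 (SE 0.30) for Isg15 and 0.17 (SE 0.28) for Irf7, and neither was called. No member was called (0 of 38) by edgeR, against 0.0381% of all genes (0.0254% lower), and the lowest adjusted p from edgeR was 0.99999. DESeq2 also called 0 members, with 0.0361% of all genes called higher and 0.0858% lower. Only 1 member was higher and 0 lower at an unadjusted p under 0.05, against 1.23% and 1.96% of all genes. That member was Ifi47, an immunity-related GTPase, at 2.98, 4.03 and 2.75 CPM in PBS_TAC and 3.44, 6.16, 6.18 and 6.76 in AAV_TAC (log2 fold change 0.79, SE 0.32, edgeR unadjusted p = 0.0262).

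Small differences in one direction were common under TAC: 33 of 38 members had a log2 fold change above 0, with a median of 0.16 against -0.01 over all genes. The groups did not overlap for 4 members, all higher with the vector, against 4.19% of all genes. They were Rsad2 (viperin, which makes a chain-terminating nucleotide), Ifi44, Rtp4 and Gbp7. Rsad2 was 20.4, 17.4 and 22.4 CPM in PBS_TAC and 26.0, 28.4, 30.7 and 26.8 in AAV_TAC. Every vector library lay above every saline library, and Rsad2 was not called.

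Averaged over sham and TAC, the vector contrast called 0 of 38 members with edgeR, against 0.0699% of all genes (0.0572% lower). DESeq2 also called 0 members, with 0.133% of all genes called higher and 0.642% lower. The edgeR median log2 fold change over members was -0.09, against -0.02 over all genes. At an unadjusted p under 0.05, 1 member was lower and 0 higher, against 9.5% and 3.39% of all genes. This member was Ifi27, at a log2 fold change of -0.41 and the lowest adjusted p from edgeR, 0.369. Without PBS_sham 1 the average called 1 member, Oasl2, as lower, against 2.18% of all genes called lower. The edgeR test of whether the vector contrast differed between TAC and sham called 0 of 38 members, against 0.00635% of all genes. DESeq2 also called 0 members, with 0.0538% of all genes called in each direction. In the edgeR test 11 members had an unadjusted p under 0.05 and a positive difference, and 0 a negative one, against 4.54% and 2.41% of all genes. The median difference was 0.65 on the log2 scale against 0.00, and 0.18 without PBS_sham 3, which enters this test as a saline sham library.

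**Figure D2:**
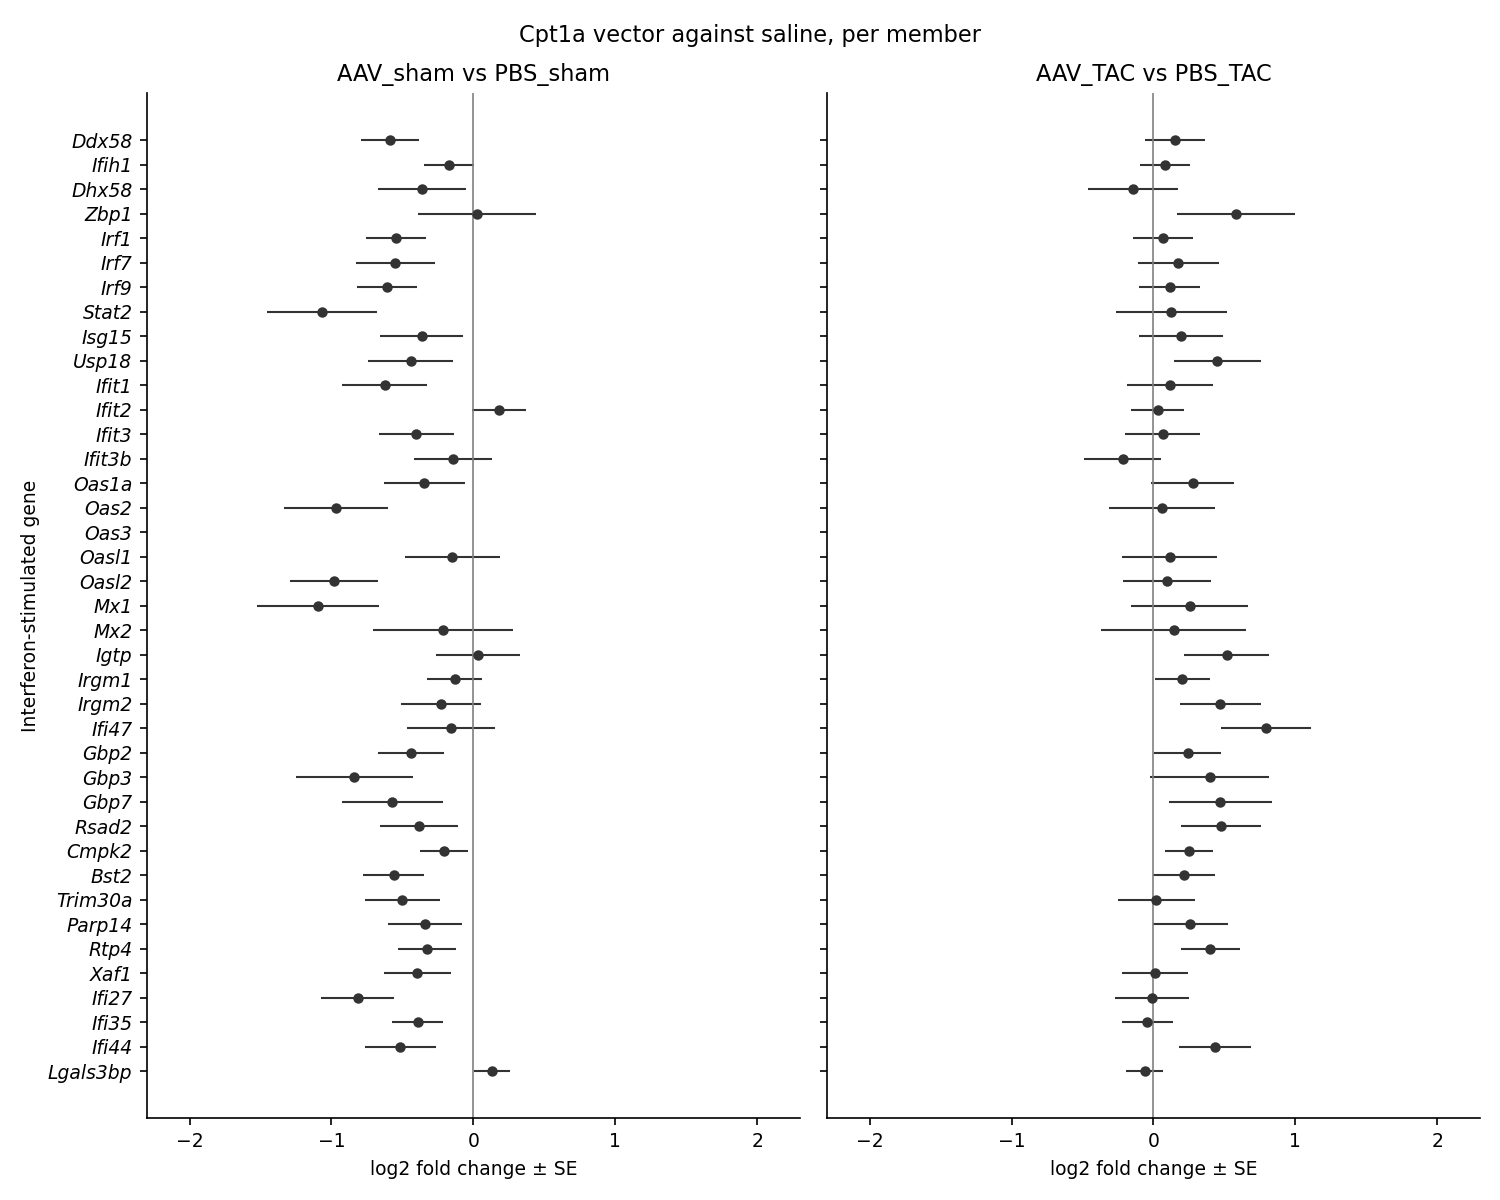
Log2 fold change of each member (vertical axis) with its standard error as a bar, for AAV_sham over PBS_sham and for AAV_TAC over PBS_TAC, with a line at 0 for no difference. No member passed the test in either contrast, and the sham estimates lie mostly below 0 (34 of 38) while the TAC estimates lie mostly above it (33 of 38); Oas3 was not tested.

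Pressure overload itself was compared in the saline and the vector hearts. In saline hearts 0 of 38 members were called by edgeR, against 0.0318% of all genes (0.0191% lower). DESeq2 also called 0 members, with 0.735% of all genes called higher and 1.26% lower. The comparison uses the same PBS_sham libraries as the vector contrast above. Its median log2 fold change was -0.36 against -0.02 over all genes. There were 7 members lower and 1 higher at an unadjusted p under 0.05, against 12% and 6.5% of all genes. Without PBS_sham 3 the median was 0.11, and without PBS_sham 1 there were 5 members called, all lower, against 7.64% of all genes called lower: Oasl2, Stat2, Ddx58, Bst2 and Ifi27. The groups did not overlap for Ifit2, higher with TAC (8.11% of all genes were so), and for Bst2, lower with TAC (6.57%). Ifit2, an RNA-binding IFIT protein, was 13.96, 13.503 and 18.3 CPM in PBS_sham and 30.05, 19.1 and 20.2 in PBS_TAC. The values of PBS_TAC 2 and 3 lay just above PBS_sham 3.

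In vector hearts 0 of 38 members were called with TAC by edgeR, against 0.00635% of all genes. DESeq2 also called 0 members, with 0.27% of all genes called higher and 0.294% lower. By edgeR 35 members lay above 0 with a median of 0.26 against 0.00. Of these, 5 were higher at an unadjusted p under 0.05 and 0 members lower, against 3.39% and 3.66% of all genes: Mx1, Rsad2, Ifit3, Ifi44 and Ifit2. Libraries did not overlap for 7 members, all higher, against 4.9% of all genes. Mx1, the interferon-induced GTPase of the nucleus, was 0.403, 0.490, 0.526 and 0.363 CPM in AAV_sham and 0.749, 1.09, 1.39 and 0.959 in AAV_TAC. All 4 TAC libraries lay above all 4 sham libraries. Its log2 fold change was 1.21 and it was not called.

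Without overload, no member was called between the knockout and its floxed control. Isg15 was 4.21, 5.12, 5.74 and 2.89 CPM in FF_sham and 4.93, 6.98, 3.69 and 4.59 in KO_sham. Irf7 was 12.1, 11.8, 17.9 and 10.4 CPM in FF_sham and 15.7, 13.3, 15.2 and 14.3 in KO_sham. The groups overlapped for both genes. Their log2 fold changes were 0.16 (SE 0.51) and 0.17 (SE 0.34). Of 39 members, 0 were called (0 with DESeq2) and 0 had an unadjusted p under 0.05, against 0% of all 15596 genes called, 2.78% higher and 2.44% lower at the unadjusted threshold. The median log2 fold change was 0.04 against 0.00, and no member was free of overlap between the groups.

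In the floxed controls overload called no member by edgeR, and Irf1 and Isg15 were highest in the haemoglobin-low libraries. Of 39 members 0 were called by edgeR, against 0% of all genes, and DESeq2 called 1, Irf1, as higher at an adjusted p of 0.0385, with 0.857% of all genes. At an unadjusted p under 0.05, 3 members were higher (Irf1, Oasl1 and Isg15) and 1 lower (Igtp), against 6.67% and 4.44% of all genes. Irf1 (ENSMUSG00000018899, chr11:53770014-53778374, plus strand), a transcription factor induced by interferon gamma, was 25.0, 31.7, 28.5 and 24.7 CPM in FF_sham and 30.8, 249, 249 and 31.9 in FF_TAC. The high values were those of the libraries labelled FF_TAC 2 and FF_TAC 3, and FF_TAC 1 and 4 lay at the upper end of FF_sham. Isg15 was 4.87, 14.2, 15.6 and 7.23 CPM in FF_TAC and Irf7 13.96, 14.3, 17.8 and 18.2, so that Isg15 split by the same libraries and Irf7 did not. The libraries of FF_TAC and FF_sham did not overlap for 1 member, lower with TAC, against 3.3% of all genes lower. With only the haemoglobin-high libraries, 0 members were called, against 0% of all genes.

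The changes that passed the test were found in the knockout under overload. In KO_TAC against FF_TAC 13 of 39 members rose and 0 fell, against 7.53% of all genes called higher and 14.3% called in either direction. In total 38 of 39 members had a log2 fold change above 0, with a median of 0.92 against 0.04 over all genes. DESeq2 called 17, all higher, and 8.48% of all genes as higher. The members that rose included both MX genes, 2 of 4 IFIT genes, 2 of 4 immunity-related GTPases, 1 of 5 OAS genes, 1 of 4 transcription factors, 1 of 4 sensors, Isg15 but not its protease Usp18, 0 of 3 guanylate-binding proteins and 3 of 11 other effectors. Members that changed did not move evenly across the 4 KO_TAC libraries, and the values per library are given for those with the largest changes.

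Ifit1 (ENSMUSG00000034459, chr19:34640871-34650009, plus strand), which binds RNA lacking the host cap methylation, was 6.73, 10.7, 14.2 and 12.4 CPM in FF_TAC and 21.5, 30.3, 157 and 186 in KO_TAC. All 4 knockout libraries lay above all 4 controls, and KO_TAC 3 and 4 lay far above KO_TAC 1 and 2. Its log2 fold change was 3.16 (SE 0.56, edgeR adjusted p = 0.00262). Oasl1 (ENSMUSG00000041827, chr5:114923240-114937915, plus strand), an OAS-like protein without synthetase activity, was 1.97, 5.84, 6.06 and 4.19 CPM in FF_TAC and 7.13, 12.4, 32.3 and 47.4 in KO_TAC. These groups also did not overlap. The log2 fold change was 2.46 (SE 0.50, edgeR adjusted p = 0.00514).

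Isg15 was 13.3, 25.9, 84.2 and 68.0 CPM in KO_TAC, against the FF_TAC values given above. KO_TAC 1 lay within the range of FF_TAC, KO_TAC 2 above it, and KO_TAC 3 and 4 furthest. The log2 fold change was 2.20 (SE 0.49, edgeR adjusted p = 0.00916). Irf7 was 17.6, 14.5, 48.3 and 54.4 CPM in KO_TAC, so that KO_TAC 1 and 2 lay inside the FF_TAC range of 13.96 to 18.2 and KO_TAC 3 and 4 far above it. Its log2 fold change was 1.07 (SE 0.34, edgeR adjusted p = 0.0449), and it lost the call when any of FF_TAC 1, 2, 3 or 4 or KO_TAC 3 or 4 was left out (log2 fold change 0.73 to 1.13).

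Mx1 (ENSMUSG00000000386, chr16:97447035-97462907, minus strand) was 0.931, 0.482, 0.858 and 1.270 CPM in FF_TAC and 1.67, 1.275, 15.6 and 20.9 in KO_TAC. KO_TAC 2 lay barely above the highest control, while KO_TAC 3 and 4 lay far above it. The log2 fold change was 3.47 (SE 0.81, edgeR adjusted p = 0.0110). Mx2 (ENSMUSG00000023341, chr16:97535308-97560900, plus strand), which the annotation lists as a polymorphic pseudogene in mouse, was 1.53, 2.05, 3.61 and 3.53 CPM in FF_TAC and 4.97, 2.25, 18.4 and 31.3 in KO_TAC. KO_TAC 2 overlapped the controls. Its log2 fold change was 2.41 (SE 0.61, edgeR adjusted p = 0.0169), and it lost the call without FF_TAC 1 (2.21) or without KO_TAC 4 (1.67).

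Ifit3 (ENSMUSG00000074896, chr19:34583531-34588731, plus strand), a partner of IFIT1, was 11.5, 8.91, 12.6 and 20.9 CPM in FF_TAC and 12.9, 14.02, 89.4 and 95.2 in KO_TAC. KO_TAC 1 and 2 lay inside the control range. Its log2 fold change was 1.97 (SE 0.55, edgeR adjusted p = 0.0263), and without both KO_TAC 3 and KO_TAC 4 it was -0.01. The call was lost when any of FF_TAC 1, 2 or 3 or KO_TAC 3 or 4 was left out (log2 fold change 1.52 to 1.93). Of the 100-base stretches of Ifit3, 31.7% also occur in Ifit3b, so the counts of this pair may be divided between them. The other members that rose were Rtp4 (1.69), Ifi47 (1.24), Irgm1 (0.96), Ifih1 (0.94), Ifi35 (0.66) and Bst2 (0.61), as log2 fold changes. Rtp4, a receptor transporter protein, was 7.06 to 10.7 CPM in FF_TAC and 11.5, 9.75, 43.9 and 46.7 in KO_TAC. Bst2 was 18.0, 24.8, 22.3 and 25.1 CPM in FF_TAC and 27.7, 27.4, 44.5 and 37.8 in KO_TAC. Bst2 is one of 5 members whose libraries did not overlap (with Mx1, Ifit1, Oasl1 and Ifi27), all higher, against 6.76% of all genes.

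**Figure D3:**
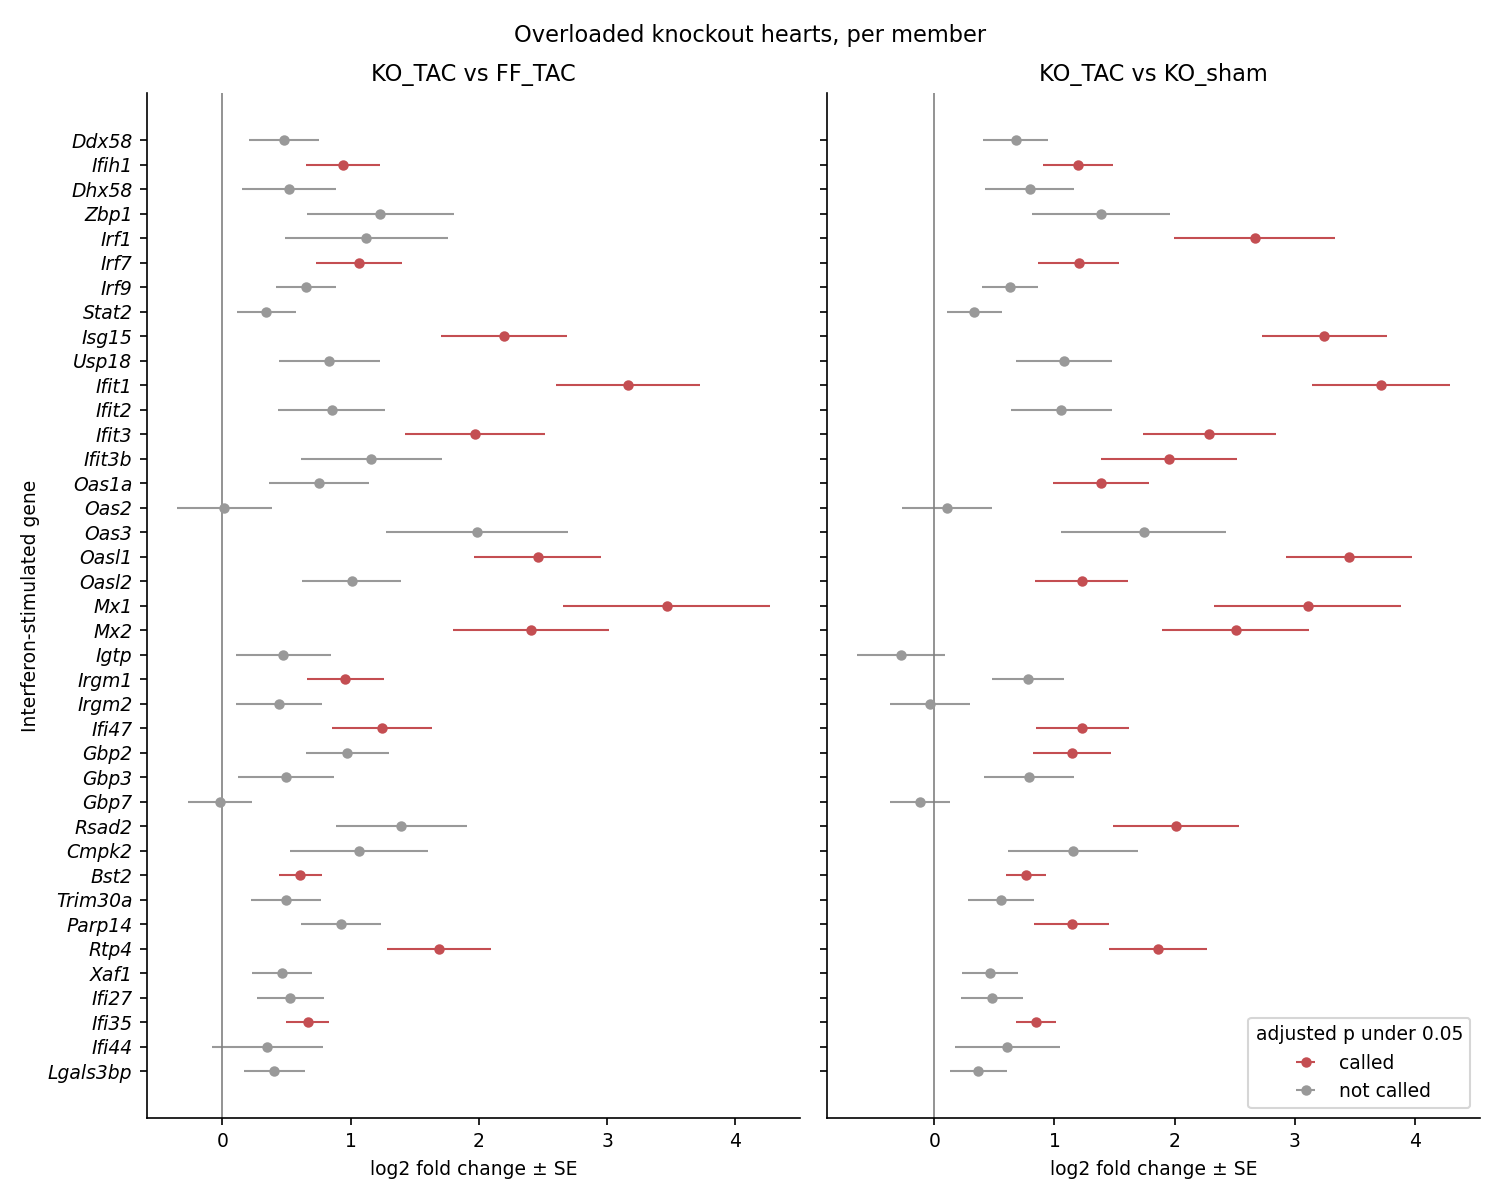
Log2 fold change of each member (vertical axis) with its standard error as a bar, for KO_TAC over FF_TAC and KO_TAC over KO_sham; red marks members with an adjusted p under 0.05 and grey the others. In all, 13 members are red in the first panel and 19 in the second, and all of them lie above 0.

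Measured against sham knockouts, the same KO_TAC libraries showed 19 of 39 members higher and 0 lower, against 14.3% of all genes called higher and 25.8% called in either direction. Because both comparisons use KO_TAC, their member lists are not independent. The median log2 fold change was 1.14 against 0.02 over all genes, 36 members lay above 0, and DESeq2 called 23 members and 14.4% of all genes as higher. At an unadjusted p under 0.05, 28 members were higher, against 21.8% of all genes. Members that rose were 3 of 4 IFIT genes, 3 of 5 OAS genes, both MX genes, 2 of 4 transcription factors, 1 of 4 sensors, 1 of 4 immunity-related GTPases, 1 of 3 guanylate-binding proteins, Isg15 and 5 of 11 other effectors. Ifit1 was 7.04, 10.1, 5.56 and 7.31 CPM in KO_sham, all below KO_TAC, with a log2 fold change of 3.72 (SE 0.58, edgeR adjusted p = 0.00133). Oasl1 was 2.35, 3.34, 1.71 and 1.67 CPM in KO_sham, again all below KO_TAC. Its log2 fold change was 3.45 (SE 0.52, edgeR adjusted p = 0.0012).

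Isg15 rose by a log2 fold change of 3.25 over KO_sham (SE 0.52, edgeR adjusted p = 0.00153), from the sham values given above, and Irf7 by 1.2 (SE 0.34, edgeR adjusted p = 0.0194). Irf7 lost the call without KO_TAC 3 (0.97) or without KO_TAC 4 (0.86). Mx1 was 1.29, 0.425, 1.25 and 1.57 CPM in KO_sham, overlapping KO_TAC 2, and rose by 3.11 (SE 0.78, edgeR adjusted p = 0.0124). Mx2 was 2.44, 4.01, 2.23 and 1.36 CPM in KO_sham and rose by 2.51 (SE 0.61, edgeR adjusted p = 0.0107). Its highest sham value was that of the library labelled KO_sham 2, which exceeded KO_TAC 2.

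Irf1 differed from most members in how the libraries split. Ifit1, Oasl1 and Isg15 were also raised in KO_TAC 1 and 2, at 2.65 to 5.76 times the median of the 12 other floxed libraries. Of those 12, 9 were haemoglobin-high, with medians of 6.73, 1.74 and 4.87 CPM for these genes. The 3 haemoglobin-low ones had 10.1 to 14.2, 3.34 to 6.06 and 6.98 to 15.6 CPM. KO_TAC 1 had 21.5, 7.13 and 13.3 CPM, and KO_TAC 2 had 30.3, 12.4 and 25.9. Irf1 was 30.5, 109, 24.8 and 27.5 CPM in KO_sham and 178, 332, 402 and 308 in KO_TAC, so that all 4 KO_TAC libraries were high, and the library labelled KO_sham 2 lay between. It rose over KO_sham by a log2 fold change of 2.67 (SE 0.67, edgeR adjusted p = 0.0123). Against FF_TAC, in which the libraries labelled 2 and 3 were at 249 CPM, its log2 fold change was 1.12 and it was not called. Other members that rose over KO_sham included Ifit3 (2.29), Rsad2 (2.01), Ifit3b (1.95), Rtp4 (1.86), Oas1a (1.38), Ifi47 (1.23), Oasl2 (1.23), Ifih1 (1.19), Gbp2 (1.15) and Parp14 (1.14), as log2 fold changes. Rsad2 was 20.6, 11.6, 22.8 and 17.0 CPM in KO_sham and 15.4, 25.7, 101 and 148 in KO_TAC, with KO_TAC 1 below 3 of the sham libraries. Oas1a shares 40.9% of its 100-base stretches with Oas1g and is uncertain for that reason. Libraries did not overlap for 10 members, all higher, against 11.1% of all genes.

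**Figure D4:**
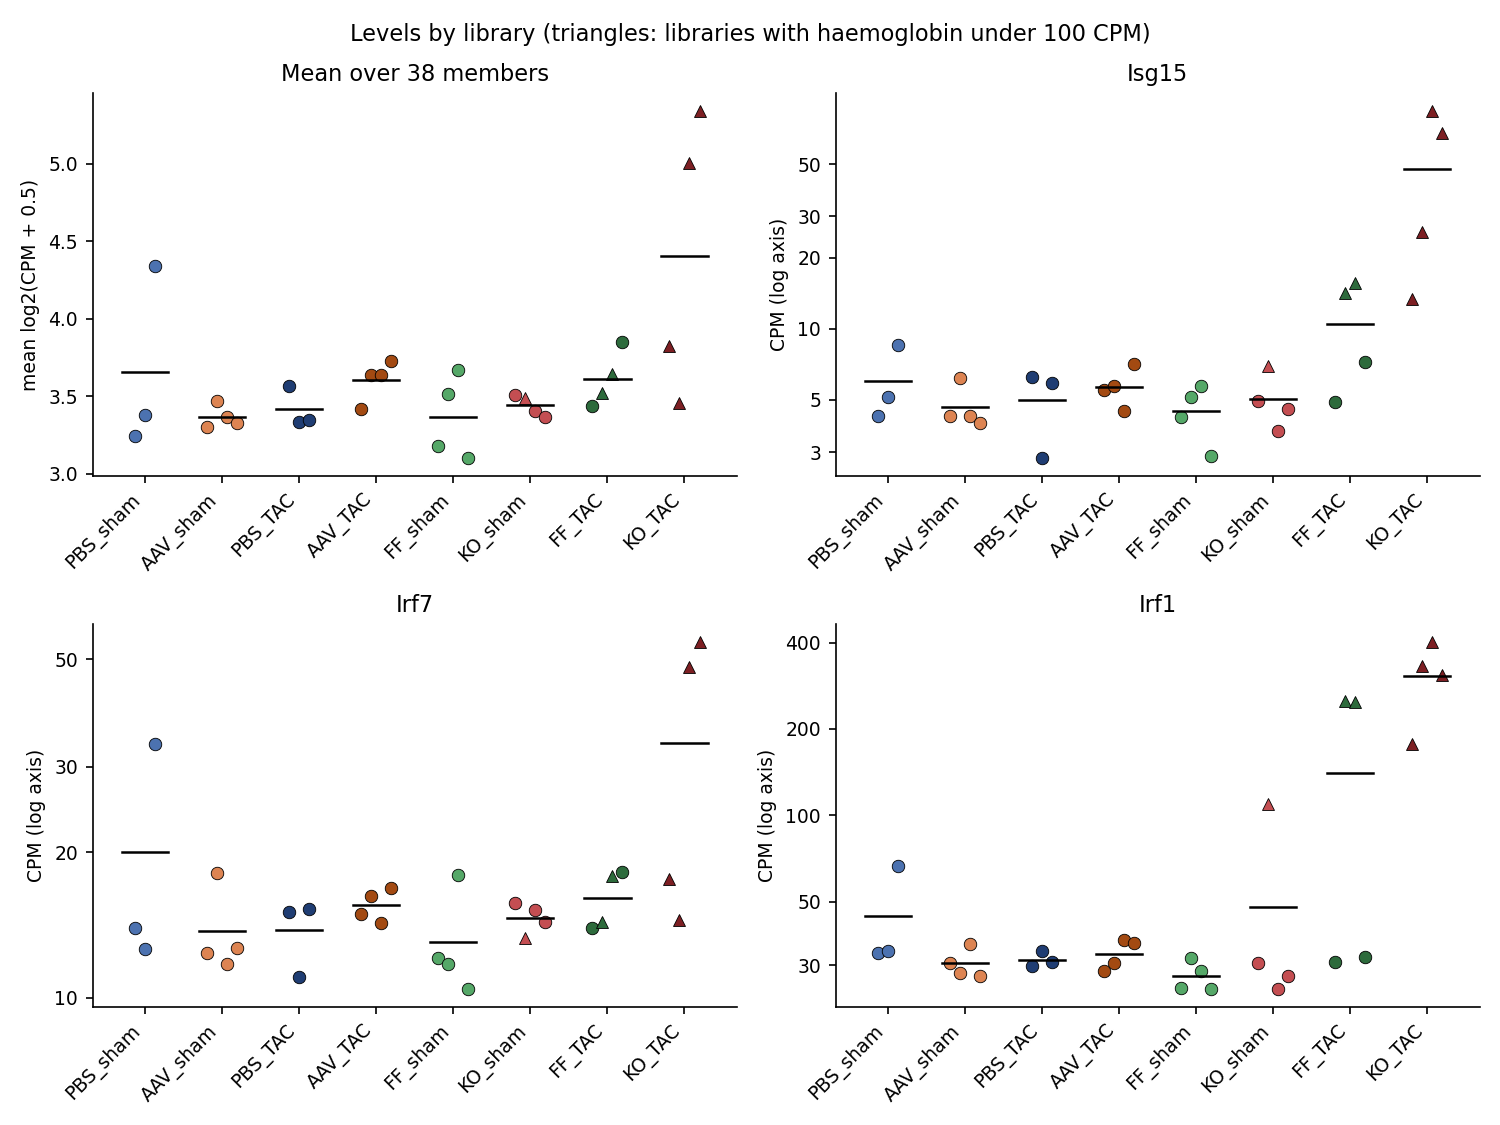
Level in each library (points, by group on the horizontal axis) of the mean log2(CPM + 0.5) over 38 members and of Isg15, Irf7 and Irf1 in CPM on log axes; bars are group means and triangles mark libraries with haemoglobin under 100 CPM. KO_TAC 3 and 4 and PBS_sham 3 are high in the member mean (5.005, 5.34 and 4.34), and Irf1 is also high in the triangles outside KO_TAC.

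The changes in KO_TAC were carried largely by 2 of its 4 libraries. The mean log2(CPM + 0.5) over the 38 members tested in both cohorts was 3.82 and 3.45 in KO_TAC 1 and 2, within the range of 3.10 to 3.85 of the 12 other floxed libraries, and 5.005 and 5.34 in KO_TAC 3 and 4. Relative to the median of those 12, the median ratio over members was 1.24, 0.861, 2.51 and 3.67 in KO_TAC 1 to 4. Over all genes these ratios had medians of 0.986 to 1.003. KO_TAC 3 exceeded all 12 for 31 of the 38 members (24.7% of all genes) and KO_TAC 4 for 35 (17%), while KO_TAC 1 did so for 11 (18.1%) and KO_TAC 2 for 6 (28%). Without both KO_TAC 3 and KO_TAC 4, chosen after the data were seen, 1 member was called against FF_TAC (Ifit1, log2 fold change 1.23) and 3 against KO_sham (Ifit1 1.78, Isg15 1.94 and Oasl1 2.097), all higher, against 4.31% and 4.93% of all genes called higher. The medians over members were then -0.06 and 0.08. Leaving out single libraries moved the calls over all genes as well, so each count of members is given with the share of all genes called higher in the same fit. Against FF_TAC there were 5 called members without KO_TAC 3 (4.13% of all genes), 6 without KO_TAC 4 (8.39%), 21 without KO_TAC 2 (6.02%) and 18 without KO_TAC 1 (12.6%). Without FF_TAC 1 there were 6 (4.57%), without the library labelled FF_TAC 2 there were 8 (8.61%), without that labelled FF_TAC 3 there were 7 (6.68%) and without FF_TAC 4 there were 8 (3.66%). Against KO_sham there were 12 without KO_TAC 3 (7.16%), 12 without KO_TAC 4 (13.7%), 29 without KO_TAC 2 (9.44%) and 28 without KO_TAC 1 (21%). Without KO_TAC 4, or without the library labelled FF_TAC 2, fewer members and more of all genes were called higher against FF_TAC than with all libraries (13 members, 7.53%), and without KO_TAC 2 more members and fewer of all genes.

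Haemoglobin level moved with the group as well, since all KO_TAC libraries were low. With a term for low haemoglobin, 6 members were called against FF_TAC (Mx1, Ifit1, Ifit3, Oasl1, Isg15 and Rtp4) and 2 against KO_sham (Ifit1 and Oasl1), all higher, with 3.91% and 0.866% of all genes called higher. The members' median log2 fold changes under this term were 0.84 and 1.19, against 0.92 and 1.14 without it, and all 13 and all 19 members called without it kept their sign. Among the haemoglobin-low libraries alone, 0 members were called against FF_TAC, with a median of 0.93 on the log2 scale. That fit called 0% of all genes in either direction, so its count cannot set the members apart from other genes. Against KO_sham, then a single library assumed to vary like the other groups, the median over members was 1.23. Comparing the 3 low libraries outside KO_TAC with the 9 high floxed ones, 36 of 39 members overlapped; over all genes 6.09% lay above and 4.21% below. Irf1 (109 to 249 against 24.7 to 31.9 CPM) and Gbp2 (35.6 to 44.1 against 21.1 to 34.4) lay above all 9, and Cmpk2, a mitochondrial nucleotide kinase, below all 9 (4.46 to 6.80 against 8.30 to 18.0).

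Cell type markers also moved, where 7.53% of all genes were called higher in KO_TAC over FF_TAC and 6.8% lower. Of the macrophage and monocyte list 3 of 8 rose in KO_TAC over FF_TAC and the summed level was 179 to 259 CPM, against 95.0 to 238 in the 12 other floxed libraries. Of the fibroblast list 2 of 5 rose (summed 1265 to 1449 CPM against 615 to 956), and of the endothelial list 3 of 5 fell (451 to 649 against 673 to 954). Of the cardiomyocyte list 1 of 5 fell and of the mural list 1 of 4. Summed T cell markers were 1.11 to 4.72 CPM in KO_TAC, dendritic markers 1.72 to 5.56 and NK cell markers 0.178 to 0.444, with Ncr1, an NK cell marker, at 0 in all 4. Summed neutrophil markers were 0 to 1.42 CPM in KO_TAC and 0 to 1.53 in the 12. Mitochondrially encoded transcripts were 12.1% to 18.7% of counts in KO_TAC against 20.9% to 26.0% in the 12. The part of these in the member levels was not tested. KO_TAC 2, low for the members, had 228 CPM of macrophage markers and 1385 of fibroblast markers, inside the range of the other KO_TAC libraries. Its summed cardiomyocyte markers were 58387.5 CPM, above the 48529.3 to 54401.3 of the 12. In KO_TAC 1, 3 and 4 they were 44889.5, 42342.6 and 42034.4 CPM, below all 12. KO_TAC 1 had 8469 CPM of atrial markers (3 genes), against 3.63 to 6.75 in the other KO_TAC libraries.

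The difference of the overload response between knockout and control was tested as an interaction. It called 0 of 39 members with edgeR, against 0.0449% of all genes. DESeq2 called 1, Ifit1 (adjusted p = 0.00918), with 1.26% of all genes called as a positive difference and 1.23% as a negative one. At an unadjusted p under 0.05 from edgeR, 12 members had a positive difference and 0 a negative one, against 6.6% and 6.54% of all genes. The median difference was 0.90 on the log2 scale against 0.03, and Ifit1 had the lowest edgeR adjusted p, 0.147 (difference 2.83). Without KO_TAC 1 the test called 2 members, Ifit1 and Ifi35, both positive, against 0.728% of all genes. The edgeR test thus did not show that the overload response of any member differed between knockout and control.

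The rest of the interferon pathway was read from 5 lists of 70 genes. Of these, 59 were tested in the vector cohort and 60 in the floxed cohort. Outside the comparisons with KO_TAC, 0 were called, and in AAV_sham against PBS_sham 2 were higher and 12 lower at an unadjusted p under 0.05, against 5.93% and 14.8% of all genes. PBS_sham 3 had a summed level of 1303 CPM over the further interferon-stimulated genes, against 533 to 678 in the other 13 libraries of its cohort. In KO_TAC against FF_TAC 13 of 60 rose and 1 fell, against 7.53% of all genes called higher and 6.8% lower. The median was 0.31 against 0.04 over all genes. Against KO_sham 19 rose and 0 fell, against 14.3% and 11.5% of all genes, with a median of 0.39. Without both KO_TAC 3 and KO_TAC 4 these counts were 2 higher (Ikbke and Ifitm2) and 1 lower (Mavs) against FF_TAC, and 5 higher and 0 lower against KO_sham, with medians of 0.03 and 0.04. In that fit 4.31% and 4.93% of all genes were called higher, and 3.81% and 3.51% lower. With the haemoglobin term the counts of pathway genes were 7 higher and 0 lower against FF_TAC, and 0 in either direction against KO_sham, with medians of 0.39 and 0.38. Under this term 3.91% and 0.866% of all genes were called higher, and 3.31% and 0.885% lower.

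Among ligands, only Ifnb1, the gene of interferon beta, was high enough to be tested, and only in the floxed cohort. It had 5 to 80 counts in each of the 7 haemoglobin-low libraries and 0 counts in each of the other 23, which allows up to 0.136 to 0.184 CPM at a floor of 3 counts. Its level was 0.304 CPM in the library labelled KO_sham 2, 0.783 and 1.10 in those labelled FF_TAC 2 and 3, and 1.23, 1.42, 1.61 and 4.76 in KO_TAC 1 to 4. Every KO_TAC library lay above all others. Ifnb1 rose in KO_TAC over KO_sham (edgeR adjusted p = 0.0166), where a fold is not given because 3 of the 4 sham libraries had 0 counts. Against FF_TAC it was not called (edgeR adjusted p = 0.145). PBS_sham 3, high for the members, had 0 counts of Ifnb1.

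Of the 6 receptor genes, Ifnar2 rose in KO_TAC over FF_TAC and Ifnar2 and Ifngr1 over KO_sham. Among 8 genes of JAK-STAT signalling and its inhibitors, Socs1, the feedback inhibitor of JAK kinases, rose over FF_TAC by 1.96 on the log2 scale, and Socs1 and Jak2 over KO_sham. Of 15 genes of upstream sensing, 4 rose over FF_TAC, Ikbke (a kinase of IRF3 and IRF7) most at 1.51, and Mavs, the mitochondrial adaptor of RNA sensors, fell by 0.42 on the log2 scale. Against KO_sham 5 of these 15 rose. Of all genes, 7.53% were called higher over FF_TAC and 14.3% over KO_sham.

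Of the 30 tested further interferon-stimulated genes, 7 rose over FF_TAC and 9 over KO_sham, against 7.53% and 14.3% of all genes. Cxcl10, a chemokine that draws T cells, was 0.493, 15.1, 20.4 and 1.21 CPM in FF_TAC and 24.7, 36.7, 127 and 161 in KO_TAC. The libraries labelled FF_TAC 2 and 3 lay between the other controls and KO_TAC, and the library labelled KO_sham 2 was at 11.2 CPM against 0.624 to 1.66 in the other KO_sham. Its log2 fold changes were 3.24 over FF_TAC and 4.61 over KO_sham. Slfn8 was 2.41 to 3.83 CPM in FF_TAC and 5.17, 5.85, 19.4 and 24.3 in KO_TAC, with log2 fold changes of 2.03 and 1.94. Ifi204, a cytosolic DNA sensor, rose over KO_sham by 1.92.

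The high libraries of the 2 cohorts differed in which members were highest. In PBS_sham 3 the ratio to the median of the other 13 ran from 0.772 for Lgals3bp to 4.22 for Stat2, and 18 of 38 members exceeded 2 times that median. By role its medians were 3.02 for guanylate-binding proteins, 2.60 for MX genes, 2.28 for transcription factors, 2.06 for OAS genes and 1.42 for IFIT genes. In KO_TAC 3 and 4 the medians were 12.9 and 18.9 for MX genes, 6.82 and 7.39 for IFIT genes, 3.25 and 4.30 for OAS genes and 1.97 and 2.87 for guanylate-binding proteins. Isg15 was at 1.67 times the median of the others in PBS_sham 3, and at 16.8 and 13.54 times in KO_TAC 3 and 4. Stat2 was 31.8 and 43.8 CPM in KO_TAC 3 and 4 and 114 in PBS_sham 3. These ratios describe single libraries and carry no test.

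**Figure D5:**
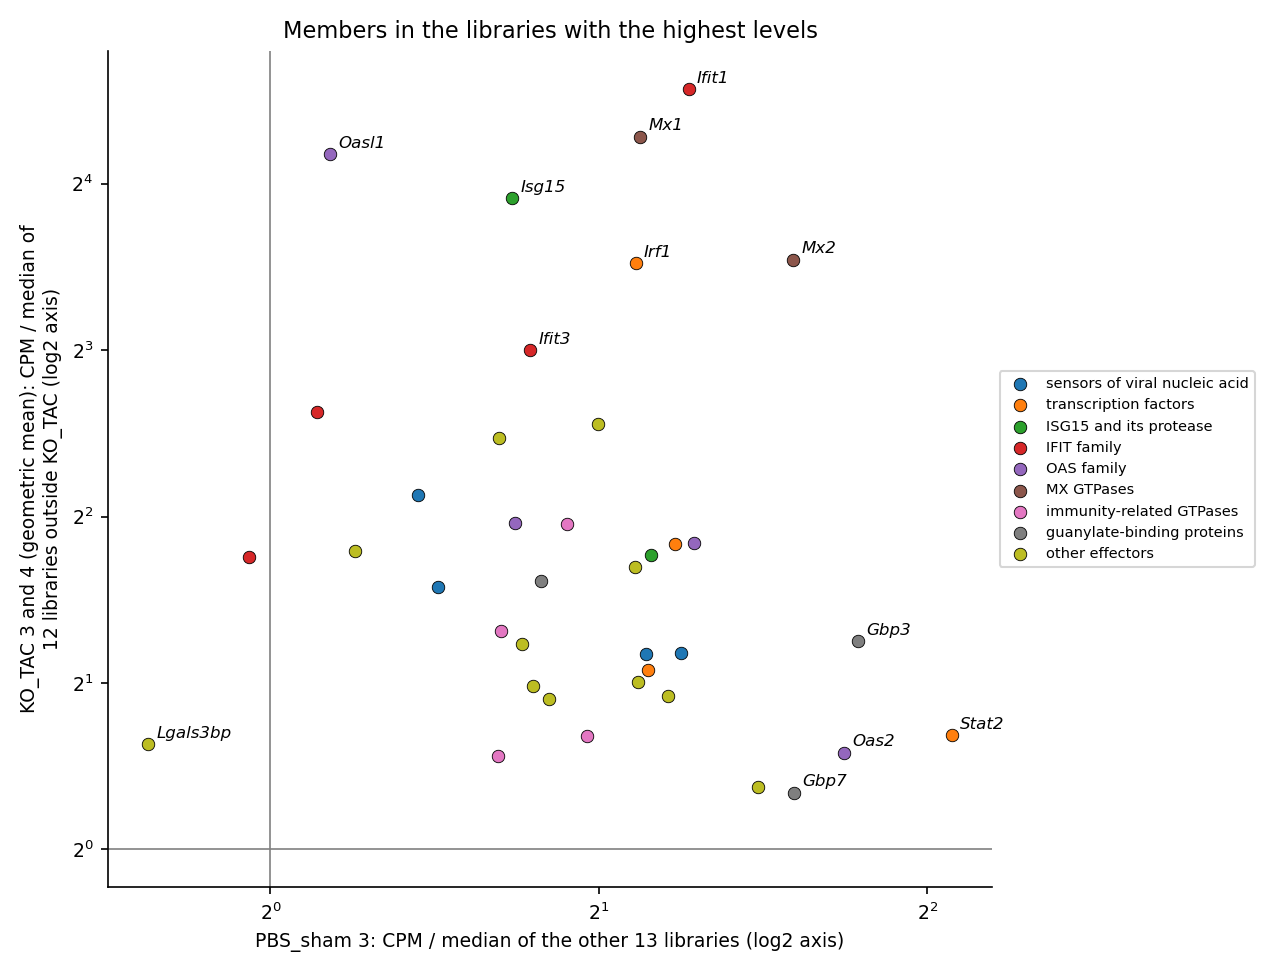
Each point is a member, coloured by role, with its ratio in PBS_sham 3 to the median of the other vector-cohort libraries on the horizontal axis and the geometric mean of its ratios in KO_TAC 3 and KO_TAC 4 to the median of the 12 floxed libraries outside KO_TAC on the vertical axis, both on log2 scales. Ifit1, Mx1, Oasl1 and Isg15 lie highest, and Stat2, Gbp3 and Oas2 lie furthest to the right.

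Some members are uncertain in their counts. More than 10% of the 100-base stretches are shared with another gene in 5 members: Oas1a, Ifit3, Ifit3b, Rtp4 and Gbp7. Exons of 8 members overlap a gene on the opposite strand, among them Irf7 (Phrf1), Irf1 (Gm17334) and Oasl1 (Gm13822), and since the strand setting of the counting is not given in the sources used here, reads of these pairs may not be told apart. Exons of 7 members overlap a gene on the same strand, among them Irf9 (Rnf31), Igtp (Irgm2) and Ifi47 (Olfr56).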

How the data were processed

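The authors deposited whole-number counts per gene for 30 poly(A) RNA libraries. Per the labels' protocols, 200 ng of RNA was made into strand-specific libraries with 12 PCR cycles and sequenced as 100-base pairs. Per the submitters' processing notes, the tools were HISAT2 2.1.0 and featureCounts of Subread 1.5.1 with the GRCm38 genome. The annotation release and strand setting are not given in the sources used here. Symbols came from GENCODE M21, which matched 55141 of 55487 gene rows, and promoters from RefSeq (9 members had none).

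The members and lists were chosen with earlier results of these data known. Groups followed the genotype and treatment labels. Each cohort was fitted on its own in edgeR 4.0.16 (R 4.3.3) with 1 mean per group, TMM scaling and the filterByExpr filter. The quasi-likelihood F test (two-sided) was adjusted by Benjamini-Hochberg over all genes tested, 15745 in the vector cohort and 15596 in the floxed cohort, with a call at an adjusted p under 0.05. There were 11 comparisons, including the mean vector contrast and 2 interactions. The fit was tested on simulated data for AAV_sham against PBS_sham and KO_TAC against FF_TAC. These data had an equal spread for every gene and no library standing apart. They therefore do not bear on the libraries that stand apart here. Values per library were planned for Isg15, Irf7 and up to 6 called members with the largest change per comparison, and up to 4 called pathway genes were named. Other genes were named after their values were seen.

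Alternatives were RLE size factors, no filter, DESeq2 1.42.0, 1 fit of all 30 libraries, a replicate block, a Myl7 covariate in the vector cohort, a haemoglobin term or split at 100 CPM in the floxed cohort, and each library left out. Leaving out KO_TAC 3 and 4 together was added after the data were seen. No library was a copy of another: pairs from the same group (42) had a chi-square of 6.80 to 262 per degree of freedom. Floors of 3 counts cover counting error only, since PCR copies are not independent. The microRNA work named in the design text was not analysed here.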

Additional observations from a re-analysis of the deposited data

Results flagged for a closer look

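In groups of 4 libraries, 54 sets of values were examined for a library far from the other 3 by Dixon's test (9 quantities in 6 groups), and 4 were found; chance gives about 1 in 20. AAV_sham 2 had 6.19 CPM of Isg15 against 3.99 to 4.28 in the other AAV_sham libraries, and 18.1 CPM of Irf7 against 11.7 to 12.6. The library labelled KO_sham 2 had 109.4 CPM of Irf1 against 24.8 to 30.5 in the other KO_sham libraries, and 8.56 CPM of Ifit3 against 11.53 to 11.56. The groups of 3 saline libraries, which hold PBS_sham 3, were too small for this test.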

How the results depend on the processing

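The counts of called members were the same, or within 1.5 times, with RLE size factors, without a filter and in 1 fit of 30 libraries, in all comparisons. The same held with the Myl7 covariate in the vector cohort, and the floxed comparisons were not fitted with it. Libraries mattered more. Leaving out single libraries gave 0 to 10 called members in AAV_sham against PBS_sham, 0 to 1 in the vector average, 0 to 5 in PBS_TAC against PBS_sham, 5 to 21 in KO_TAC against FF_TAC, 12 to 29 in KO_TAC against KO_sham and 0 to 2 in the floxed interaction. All calls gained in the vector cohort came without PBS_sham 1. DESeq2 called 1 in FF_TAC against FF_sham (Irf1, with 0.857% of all genes called higher) and 1 in the floxed interaction (Ifit1, with 1.26%). In KO_TAC against FF_TAC and against KO_sham, the haemoglobin term gave 6 and 2, and leaving out KO_TAC 3 and 4 together gave 1 and 3. The haemoglobin-low libraries alone gave 0 against FF_TAC, where 0% of all genes were called. The cause was not tested. The sign of single values reversed for Irf7 in AAV_sham against PBS_sham without PBS_sham 3 (0.045; leaving out single libraries gave -0.78 to 0.045), for Isg15 in AAV_TAC against PBS_TAC without PBS_TAC 2 (-0.088; single libraries gave -0.088 to 0.39), and in KO_TAC against FF_TAC without KO_TAC 3 and 4 for Ifit3 (-0.014) and Irf7 (-0.013). With the replicate number as a block, 9 of the 13 calls and 16 of the 19 remained, the other counts were 0, and Irf7 in KO_TAC against FF_TAC lost its call (0.95); the numbers do not pair the libraries (deviations of same-numbered libraries correlated at -0.46 to 0.45). At these depths Oas3 in the vector cohort, and interferon genes other than Ifnb1, were too low to test.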

Other observations

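Over the 703 pairs of 38 members, the median Spearman rho of log2 levels was 0.42 over the 14 libraries of the vector cohort and 0.53 over the 16 of the floxed cohort, as a description of libraries that share groups and depth. Without PBS_sham 3 in the first and without KO_TAC 3 and KO_TAC 4 in the second, the medians were both 0.32. Over all pairs of the 15310 genes tested in both cohorts, the medians lay between -0.0022 and 0 in the same 4 sets of libraries.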
